A study of Mus musculus with 4 samples.

Results

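The vascular endothelial growth factor (VEGF) family was described here by 8 genes, chosen by their symbols: the ligands *Vegfa*, *Vegfb* and *Vegfc*, the receptor tyrosine kinases *Kdr* (VEGFR2 or FLK1), *Flt1* (VEGFR1) and *Flt4* (VEGFR3), and the coreceptors *Nrp1* and *Nrp2*. They are 8 of the 32285 genes counted in each library. Mouse hearts at midgestation (E10.5) had been dissociated after dissection of the whole cardiogenic region and profiled with 10x Genomics droplets, in which every captured transcript carries a unique molecular identifier (UMI). Control hearts, labelled Tie2flfl, carried the floxed *Tie2* gene without a Cre, and *Tie2-cko* hearts (*Nfatc1Cre;Tie2 f/f*, labelled Nfatcre-Tie2flfl) carried the same floxed alleles and the *Nfatc1* knock-in that places Cre in the endocardium, so that both genotypes shared the floxed gene. There were 2 libraries of each genotype, numbered 5 and 7 for control and 6 and 8 for *Tie2-cko*, taken from 1 litter, with a mixed genetic background of 129 and C57/BL6 and both sexes in use. The Cre acts in endocardial cells (EdCs) and their descendants, so that the model leaves *Tie2* in other endothelium. By the methods each library was 1 heart, and p-values measure the spread between these 4 hearts.

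VEGF signalling is the main route by which endothelial cells are called to divide, migrate and survive. VEGFA binds KDR, which carries most of the response, and FLT1, which binds it tightly and signals weakly, so that FLT1 is often described as a decoy. VEGFB binds FLT1, and VEGFC binds FLT4 and, once processed, KDR. Neuropilins bind VEGF as coreceptors and also bind class 3 semaphorins with plexins. In the embryonic heart, myocardial VEGFA acts on the endocardium and on the growing coronary vessels, and endocardial cushions respond to its dose.

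All 8 genes are protein-coding and lie on 6 chromosomes of GRCm38 (GENCODE M21). *Kdr* (ENSMUSG00000062960) spans chromosome 5 from 75932827 to 75978458 and *Flt1* (ENSMUSG00000029648) the same chromosome from 147561604 to 147726011, both on the reverse strand. *Flt4* (ENSMUSG00000020357) is on chromosome 11 from 49609263 to 49652739. *Nrp1* (ENSMUSG00000025810) is on chromosome 8 from 128358604 to 128503363, on the same chromosome as *Vegfc* (ENSMUSG00000031520, 54077606 to 54187096), and *Nrp2* (ENSMUSG00000025969) is on chromosome 1 from 62703285 to 62818695. *Vegfa* (ENSMUSG00000023951) is on chromosome 17 from 46016993 to 46032369 and *Vegfb* (ENSMUSG00000024962) on chromosome 19 from 6982473 to 6987651, both reverse.

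The 250 bases before the transcription start of the myocardial ligand and of the pair of receptors whose order reversed between kinds of endocardium are shown first, as the regulatory sequence nearest to these genes. They were taken from RefSeq (GRCm38.p6), whose table matched each of the 8 genes, and are given 5′ to 3′ on the strand of the gene. Capitals mark the ETS core GGAA on either strand (GGAA or TTCC), the core bound by the ETS factors of endothelial cells.
*Vegfa*, chr17:46032378-46032627, reverse strand: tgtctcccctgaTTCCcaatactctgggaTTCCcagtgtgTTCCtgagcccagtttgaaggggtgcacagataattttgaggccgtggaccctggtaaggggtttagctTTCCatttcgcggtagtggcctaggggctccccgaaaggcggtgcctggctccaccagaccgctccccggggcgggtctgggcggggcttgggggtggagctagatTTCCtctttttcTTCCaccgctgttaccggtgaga
*Kdr*, chr5:75978456-75978705, reverse strand: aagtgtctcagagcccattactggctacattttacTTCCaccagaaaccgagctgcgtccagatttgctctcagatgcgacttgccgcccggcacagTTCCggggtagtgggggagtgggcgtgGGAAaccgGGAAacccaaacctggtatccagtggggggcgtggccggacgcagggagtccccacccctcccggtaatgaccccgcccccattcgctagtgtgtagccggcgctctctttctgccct
*Flt1*, chr5:147726012-147726261, reverse strand: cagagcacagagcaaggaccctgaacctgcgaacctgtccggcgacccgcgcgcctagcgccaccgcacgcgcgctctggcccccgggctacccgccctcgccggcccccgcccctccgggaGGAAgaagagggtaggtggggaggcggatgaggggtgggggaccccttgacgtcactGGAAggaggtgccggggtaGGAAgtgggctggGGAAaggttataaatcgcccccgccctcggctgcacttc

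The core occurred 4 times each in the *Kdr*, *Flt1* and *Nrp1* windows, 6 times in the first *Vegfa* window, 2 times in that of *Flt4*, and once each in those of *Vegfb*, *Vegfc* and *Nrp2*. Of all 32851 windows of this length in the table, 93.4% held it at least once and the median number was 3, so that its presence did not set these genes apart. None of the windows held the FOXO site GTAAACA on either strand, which 3.17% of all windows held. The hypoxia core ACGTG, on either strand in 16.6% of all windows, occurred once, in the window of a second *Vegfa* start that lies inside the gene. The windows follow RefSeq starts. Those of *Flt4* and *Nrp1* also lie inside the GENCODE spans given above, and those of *Kdr* and *Nrp2* overlap theirs in part.

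After filtering, 33419 cells remained, with 5684 to 10097 cells per library and a median of 14878 to 25875 UMIs per cell, and these fell into 27 clusters. Over all barcodes the control libraries held 259775540 and 169361996 UMIs and the *Tie2-cko* libraries 222270938 and 210062861. The 8 genes and the other genes compared here were left out of the genes used for clustering. Libraries 5 and 6 stood apart by their many cells from outside the heart, for example 530 and 556 cells of a cluster led by *Barx1* against 2 and 1 in libraries 7 and 8. Library pairs shared 29 to 62 barcodes, at most 0.521% of the smaller library. Both *Tie2-cko* libraries held less red-cell RNA outside red cells: in chamber EdCs, the summed red-cell markers were at 79.5 and 33.3 UMIs per 10000 in the controls and at 12.8 and 12.1 in *Tie2-cko*, and the part of this difference in the results below was not tested. A cluster of 1554 cells with few UMIs shared leading genes with the chamber EdCs and was left unnamed.

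Endothelial cells formed 3 clusters, each with all 6 endothelial markers present. Chamber EdCs, named by *Emcn*, *Npr3*, *Gpr182* and *Gata2*, numbered 378, 137, 602 and 468 in libraries 5, 6, 7 and 8. Cushion EdCs, with *Nfatc1* and *Wnt4* among their leading genes, numbered 251, 122, 422 and 411. Vascular-like endothelial cells, led by *Cldn5* and *Gja4*, numbered 94, 73, 52 and 93. Levels below are a gene's UMIs per 10000 UMIs in a cell, as the mean of a library's cells, and values are listed in the order of libraries 5, 6, 7 and 8. The cell types come from the same cells, so that levels across them are a description without a test.

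*Kdr* was highest in vascular-like cells, at 3.17, 3.67, 2.38 and 2.44 UMIs per 10000 (mean 2.92 ± 0.616, SD, n = 4 libraries). Chamber EdCs followed with 1.95, 1.84, 1.64 and 1.67 (1.77 ± 0.146), and no library of the chamber EdCs reached a library of the vascular-like cells. In cushion EdCs the level was 0.558, 0.454, 0.414 and 0.603 (0.507 ± 0.0879). Each of these libraries lay below each of the chamber EdC libraries. In red blood cells, which served as the background of free RNA, *Kdr* was at 0.00538 ± 0.00157.

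*Flt1* was also highest in vascular-like cells, at 2.06, 2.07, 1.67 and 1.98 UMIs per 10000 (1.94 ± 0.188), but its order within the endocardium was the opposite of that of *Kdr*. Cushion EdCs held 1.64, 2.02, 1.72 and 1.68 (1.77 ± 0.174) and overlapped with the vascular-like cells. Chamber EdCs held 1.41, 1.46, 1.20 and 1.17 (1.31 ± 0.146), with every library below every cushion EdC library. *Flt1* dropped to 0.122 ± 0.0179 in the mesenchymal cells (MCs) of the cushions and 0.114 ± 0.0273 in epicardial cells, which overlapped with each other, and stood at 0.00378 ± 0.00164 in red blood cells.

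*Flt4*, the receptor of VEGFC, was at 0.436, 0.574, 0.282 and 0.392 UMIs per 10000 in vascular-like cells (0.421 ± 0.121). Chamber EdCs held 0.166, 0.168, 0.0963 and 0.113, and cushion EdCs 0.111, 0.0959, 0.0632 and 0.0755, so that the vascular-like libraries lay above both while chamber and cushion EdCs overlapped. In MCs the mean was 0.0273 ± 0.00798, and in each CM class it was at most 0.00285.

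**Figure D1:**
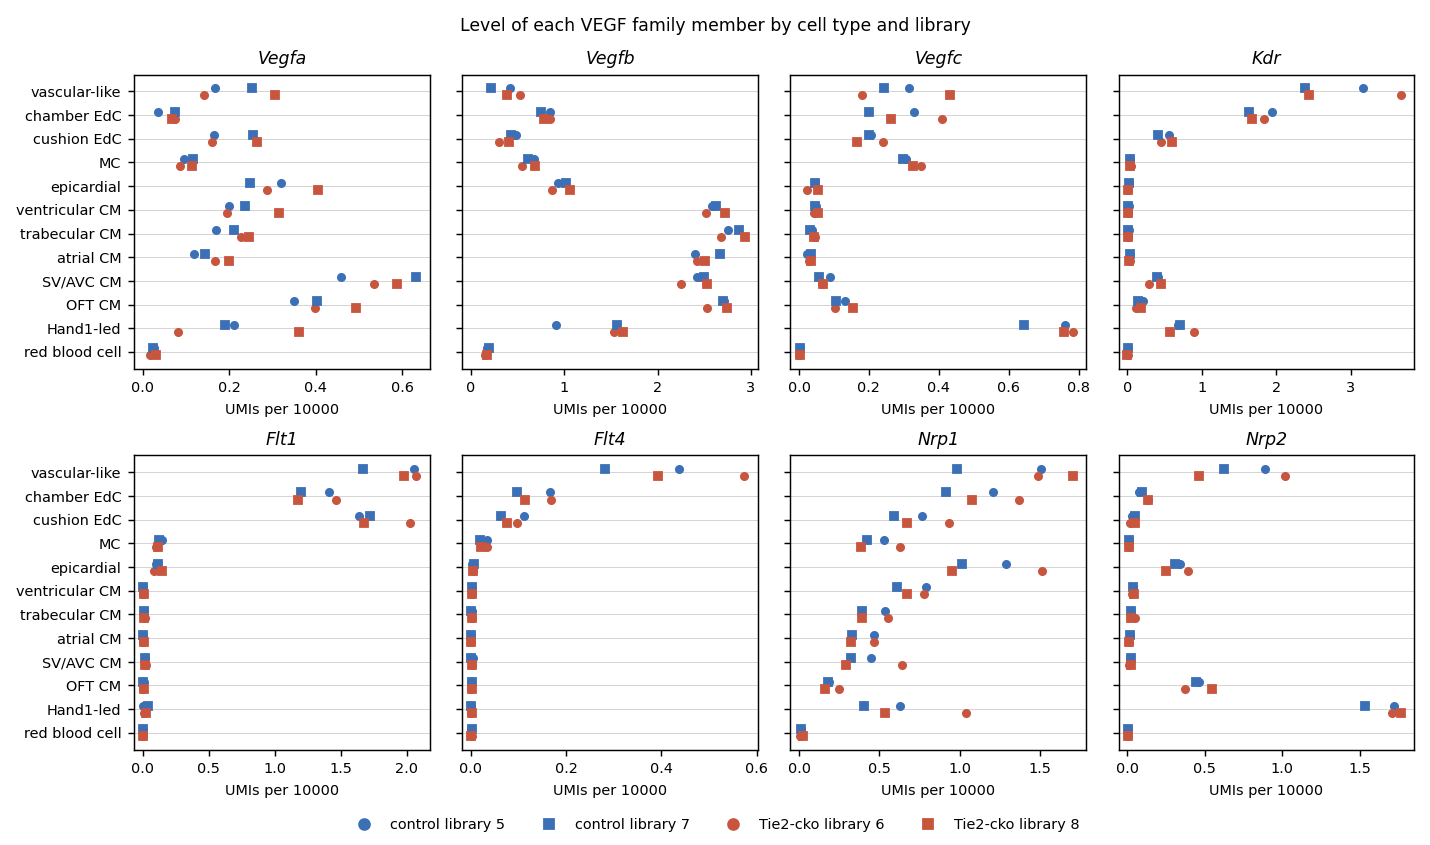
Level of each of the 8 genes in UMIs per 10000 (x axis, own linear scale per panel) in 12 cell types (y axis), with 1 point per library, control in blue and *Tie2-cko* in red, and circles for libraries 5 and 6. *Kdr* and *Flt1* rank chamber and cushion EdCs in opposite order, and *Vegfb* separates the 5 CM classes from all other types.

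In single cells every library kept the order of *Kdr*, while the ranges of the *Flt1* shares of chamber and cushion EdCs over the libraries overlapped. After each cell was thinned to 5500 UMIs, which left out 2 to 41 shallower EdCs per library, 48.7% of chamber EdCs (45.6 to 51.8% over the libraries) and 21.2% of cushion EdCs (19.2 to 24.5%) held a *Kdr* UMI. For *Flt1* the shares were 44.8% (42.7 to 47.6%) and 52.8% (47.4 to 55.8%). Red blood cells gave 0.263% for *Kdr* and 0.231% for *Flt1*. Without thinning, the *Kdr* shares were 71.6% in chamber EdCs, 40.1% in cushion EdCs and 1.94% in red blood cells, at median depths of 11032 to 27717, 11584 to 26185 and 22812 to 60281 UMIs. *Flt1* without *Kdr* was found in 34.9, 42.5, 42.6 and 41.2% of thinned cushion EdCs in libraries 5, 6, 7 and 8, against 20.7, 21.6, 20.1 and 18.6% of chamber EdCs. Cells with *Kdr* and no *Flt1* made up 12.0, 5.83, 9.11 and 7.63% of cushion EdCs and 24.9, 22.4, 25.3 and 24.1% of chamber EdCs. Vascular-like cells most often held both, in 48.3, 45.3, 34.8 and 36.7%. A cell without a UMI at this depth may still express the gene.

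**Figure D2:**
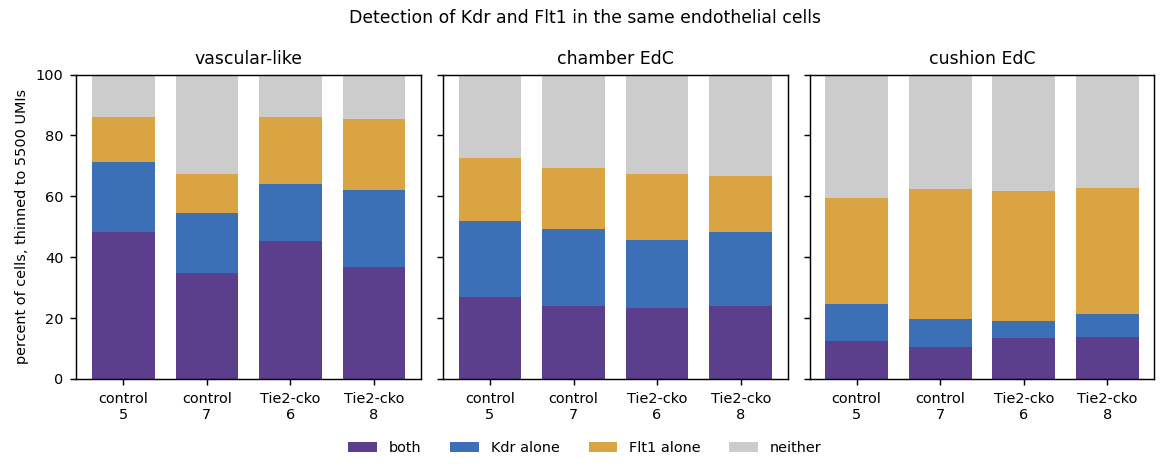
Percent of cells (y axis) with a UMI of *Kdr* and *Flt1*, of 1 alone or of neither, after thinning to 5500 UMIs, in 3 endothelial cell types (panels) and 4 libraries (bars). Cells with *Flt1* alone make up 34.9 to 42.6% of cushion EdCs and 18.6 to 21.6% of chamber EdCs, in libraries of both genotypes.

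Outside endothelium, *Kdr* was found in a cluster led by *Hand1*, *Rgs5* and *Bmp4*, which matched no marker list (68, 42, 196 and 322 cells), and in part of the cardiomyocytes (CMs). The *Hand1*-led cells held 0.675, 0.901, 0.705 and 0.574 UMIs of *Kdr* per 10000, overlapping with cushion EdCs. CMs with markers of the sinus venosus or atrioventricular canal (SV/AVC), such as *Shox2* and *Bmp2*, held 0.418, 0.295, 0.396 and 0.454, and CMs of the outflow tract (OFT) held 0.211, 0.121, 0.148 and 0.187. Ventricular CMs were at 0.0115 ± 0.00588, so that *Kdr* differed strongly among CM classes. Of thinned SV/AVC CMs, 17.5% (13.9 to 19.8%) held a *Kdr* UMI. The 730 SV/AVC CMs with a *Kdr* UMI had summed endothelial markers of 0.296 to 0.457 UMIs per 10000, which overlapped with the 0.356 to 0.474 of the 1139 SV/AVC CMs without one and lay far below the 12.8 to 14.0 of chamber EdCs. Their CM markers were at 252 to 273 against 202 to 231. These 2 groups were formed without thinning and differed in depth. Median UMIs were 21435, 38482, 16774 and 20522 with a *Kdr* UMI and 14493.5, 26244.5, 11787 and 14935 without one. *Flt1* did not follow *Kdr* into these cells, being at 0.0183 ± 0.00547 in SV/AVC CMs and 0.0205 ± 0.0189 in *Hand1*-led cells.

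Among the ligands, *Vegfa* was highest in SV/AVC CMs, at 0.459, 0.536, 0.633 and 0.589 UMIs per 10000 (0.554 ± 0.0751). OFT CMs followed at 0.351, 0.399, 0.404 and 0.494 and overlapped with them. A cluster led by *Lhx2* (0.368 ± 0.190, with 0.645 in its highest library) and epithelial cells (0.342 ± 0.0853) came next by mean. Ventricular CMs (0.237 ± 0.0562), trabecular ventricular CMs (0.214 ± 0.0323) and atrial CMs (0.157 ± 0.0344) were lower, and each overlapped with its neighbour in this order. Epicardial cells were at 0.315 ± 0.0672. The chamber EdCs that line the myocardium held the least of the heart's own cell types, 0.0347, 0.0753, 0.0744 and 0.0683, with every library below every MC library (0.103 ± 0.0138), while red blood cells were at 0.0242 ± 0.00587. After thinning, 2.15% of chamber EdCs and 1.91% of red blood cells held a *Vegfa* UMI (9.35% and 7.24% without thinning). The level in every chamber EdC library lay above that in every red blood cell library, while the thinned shares of the cell types overlapped. Cushion EdCs held 0.166, 0.161, 0.255 and 0.264, each above each chamber EdC library.

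*Vegfb*, which encodes a ligand of FLT1, was high in every CM class. Over all CMs it was at 2.60, 2.53, 2.71 and 2.74 UMIs per 10000 (2.65 ± 0.0978), and the means of the 5 CM classes ran from 2.43 ± 0.126 in SV/AVC CMs to 2.81 ± 0.115 in trabecular ventricular CMs, each overlapping with the next. No library of another cell type reached a CM class. Chamber EdCs held 0.848, 0.845, 0.747 and 0.787, above the cushion EdCs with 0.482, 0.304, 0.430 and 0.413, and red blood cells held 0.172 ± 0.0164.

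*Vegfc*, whose product drives lymphatic and venous growth, had no CM source of this kind. It was highest in the *Hand1*-led cells, at 0.761, 0.783, 0.644 and 0.760 UMIs per 10000. MCs (0.320 ± 0.0229), chamber EdCs (0.300 ± 0.0888), vascular-like cells (0.292 ± 0.107) and, just below, cushion EdCs (0.203 ± 0.0307) came next with overlapping neighbours, and over all CMs the level was 0.0555 ± 0.00556. *Vegfc* and its receptor *Flt4* were thus both present in chamber EdCs.

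The neuropilins differed from each other. *Nrp1* was widespread, with 1.51, 1.49, 0.986 and 1.70 UMIs per 10000 in vascular-like cells, 1.29, 1.51, 1.01 and 0.954 in epicardial cells and 1.21, 1.37, 0.917 and 1.08 in chamber EdCs, 3 types that overlapped. Ventricular CMs held 0.713 ± 0.0864 and OFT CMs 0.194 ± 0.0362. *Nrp2* was narrower: *Hand1*-led cells held 1.72, 1.71, 1.53 and 1.76, vascular-like cells 0.887, 1.01, 0.626 and 0.463, and OFT CMs 0.464, 0.375, 0.443 and 0.545. Epithelial cells (0.378 ± 0.0804) overlapped with OFT CMs, followed by epicardial cells (0.322 ± 0.0602) and a cluster led by *Prrx1* (0.232 ± 0.0359). In chamber EdCs *Nrp2* was at 0.0776, 0.132, 0.0940 and 0.131, in cushion EdCs at 0.0370 ± 0.0164 and in MCs at 0.0111 ± 0.00170. Thus OFT CMs, low in *Nrp1* among CMs, were high in *Nrp2*, and ventricular CMs showed the reverse.

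By UMIs summed over cells, CMs were the main store of *Vegfa* and *Vegfb* UMIs. Among the UMIs of 6 cardiac cell types (CMs, MCs, epicardial cells, and chamber EdCs, cushion EdCs and vascular-like cells), CMs held 80.6% of those of *Vegfa* (78.5 to 81.8% over the libraries) and 91.0% of those of *Vegfb* (89.7 to 92.1%), while being 60.8% of the cells. For *Vegfc* CMs held 39.3%, MCs 30.4% and chamber EdCs 16.7%. Of the *Kdr* UMIs, chamber EdCs held 46.4% (40.4 to 59.5%), CMs 24.5% (14.2 to 32.9%) and vascular-like cells 18.6%. Of the *Flt1* UMIs, chamber EdCs held 37.4% and cushion EdCs 34.5%. CMs held 60.3% of the *Nrp1* UMIs and 53.8% of the *Nrp2* UMIs, and epicardial cells held 25.9% of those of *Nrp2*. These shares depend on both the number of cells and the UMIs per cell.

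**Figure D3:**
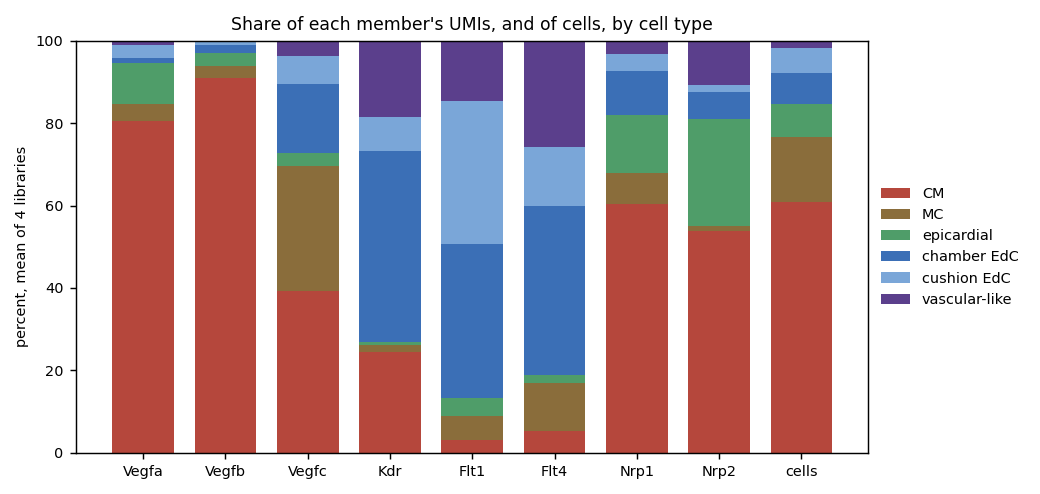
Share (percent, y axis, mean of 4 libraries) of the UMIs of each gene, and of cells (right bar), in 6 cardiac cell types. CMs make up 60.8% of the cells and hold 91.0% of the *Vegfb* UMIs and 80.6% of the *Vegfa* UMIs. CMs also had the highest median UMIs per cell of the 6 types, for which the bar of cells does not allow. The 3 endothelial types hold most UMIs of *Kdr*, *Flt1* and *Flt4*, and CMs most of those of *Nrp1* and *Nrp2*.

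The genes most like each member were those with the highest Pearson correlation of log2(level + 0.1) over 19 cell types, points that share libraries and depth. For *Flt1* these were *Tie1* (r = 0.987), *Cdh5* (0.980) and *She* (0.979), and for *Flt4* they were *Gimap4* (0.983), *Adgrl4* (0.982) and *Sox17* (0.979). *Kdr* was nearest to *Grrp1* (0.893), *Mmrn2* (0.853) and *Gja4* (0.847). *Vegfa* was nearest to *Bnip3l* (0.870) and *Egln1* (0.820), a pair of genes known to be induced by hypoxia, and to *Npepps* (0.792). *Vegfb* lay nearest to *Mtx2* (0.951), *Fuom* (0.950) and *Pnkd* (0.946), and *Vegfc* to *Tgfbi* (0.861), *Asb4* (0.824) and *Smad7* (0.821). For *Nrp1* they were *Ppic* (0.854), *Wwtr1* (0.839) and *Rab13* (0.836), and for *Nrp2* they were *Isl1* (0.819), *Hip1* (0.754) and *Efnb2* (0.750). Between members, *Flt1* and *Flt4* had r = 0.904, *Kdr* and *Flt1* 0.773, and *Nrp1* and *Nrp2* 0.295.

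The genotypes were compared on UMIs added up within each cell type of a library, using the quasi-likelihood test of edgeR on 2 hearts per genotype, with p-values adjusted by Benjamini-Hochberg over all genes of the cell type. In a sum, fewer cells and less RNA per cell cannot be told apart, and values are therefore given relative to the sum, as CPM after TMM scaling. *Tek*, which encodes TIE2 and was the deleted gene, was at 85.2 and 99.5 CPM in control chamber EdCs and only 14.7 and 17.8 in those of *Tie2-cko* (libraries 5, 7, 6 and 8, in that order; log2 fold change -2.49, SE 0.17, edgeR adjusted p = 0.00338). In cushion EdCs the log2 fold change of *Tek* was -2.51 (SE 0.28, edgeR adjusted p = 0.0167), and in vascular-like cells it was -0.18 (SE 0.29). *Tek* alone passed an adjusted p of 0.05 in chamber EdCs, 1 of 11520 genes or 0.00868%.

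None of the 8 VEGF family genes was past the threshold in chamber EdCs with edgeR or DESeq2, and *Nrp2* was the only one with an unadjusted p under 0.05 in edgeR, as had 781 genes (6.78%). *Nrp2* was at 7.51 and 9.61 CPM in the controls and at 14.2 and 16.0 in *Tie2-cko*, from 54 to 108 UMIs per library. Both *Tie2-cko* libraries were above both control libraries (log2 fold change 0.82, SE 0.21, edgeR adjusted p = 0.431). The adjusted p of *Nrp2* ran from 0.000411 to 1.00 over the alternatives: it was 0.0477 without the filter on low counts and 0.000411 with a block for libraries 5 and 6 against 7 and 8, a fit in which edgeR called 889 genes. The summed vascular markers were at 5.75 and 4.71 UMIs per 10000 in *Tie2-cko* chamber EdCs and at 6.40 and 5.98 in controls. This sum includes *Plvap*, itself a leading gene of the chamber EdCs, and so cannot measure the share of vascular-like cells. *Nrp2* was high in vascular-like cells, and the part of such cells in its difference was not tested.

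*Vegfc* in control chamber EdCs stood at 31.6 (library 5) and 21.1 CPM (library 7), and in *Tie2-cko* at 41.4 (library 6) and 28.3 CPM (library 8; log2 fold change 0.42, SE 0.24, edgeR adjusted p = 0.803). The genotypes overlapped, while library 6 was above library 5 and library 8 above library 7, and with the block the adjusted p in edgeR was 0.0163. *Nrp1* had the same arrangement, with 121 and 101 CPM in controls and 145 and 118 in *Tie2-cko* (log2 fold change 0.25, SE 0.16). So had *Flt4*, with 18.5 and 11.6 against 21.5 and 15.7 (0.32, SE 0.26). Leaving out 1 library moved *Flt4* between 0.0034 (without library 7) and 0.70 (without library 5), and *Nrp1* between 0.10 (without library 6) and 0.39 (without library 5). For these 3 genes libraries 5 and 6 were higher than libraries 7 and 8 of the same genotype.

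*Kdr*, the main VEGF receptor, was at 192 and 190 CPM in control chamber EdCs and at 234 and 200 in *Tie2-cko*, both above both controls, with a log2 fold change of 0.19 (SE 0.14, edgeR adjusted p = 0.849). The mean level per cell gave no such order: controls had 1.79 ± 0.220 UMIs per 10000 and *Tie2-cko* hearts 1.75 ± 0.118 (SD, n = 2), so that the direction differed between the 2 summaries. *Flt1* was at 144 and 130 CPM against 139 and 130 (log2 fold change -0.01, SE 0.13), and *Vegfb* at 77.3 and 74.4 against 76.8 and 72.2 (-0.02, SE 0.13). *Vegfa* was at 3.89 and 6.48 against 4.42 and 7.84 (0.24, SE 0.36), from 27 to 60 UMIs. Of the 8 genes 2 (*Nrp2* and *Kdr*) had both *Tie2-cko* libraries above both controls and none had both below, where 18.1% and 19.1% of all genes did. The median log2 fold change was 0.25 over the 8 genes and 0.01 over all genes.

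**Figure D4:**
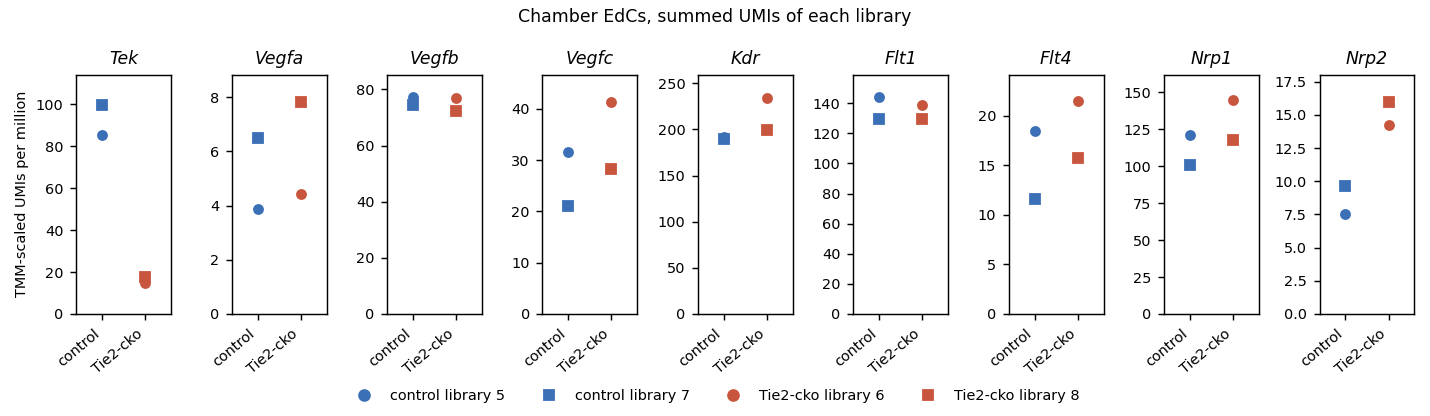
TMM-scaled CPM (y axes start at 0, own scale per panel) of *Tek* and the 8 VEGF family genes, summed over the chamber EdCs of each library, control in blue and *Tie2-cko* in red, circles for libraries 5 and 6. *Tek* lies at 85.2 and 99.5 in control and 14.7 and 17.8 in *Tie2-cko*, *Nrp2* lies at 7.51 and 9.61 in control and 14.2 and 16.0 in *Tie2-cko*, and for *Vegfc*, *Flt4* and *Nrp1* the circles lie above the squares within each genotype.

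In cushion EdCs none of the 8 genes was called with edgeR, against 0.0619% of 11305 genes, none had an unadjusted p under 0.05, against 1.88%, and none was called with DESeq2. The log2 fold change was 0.00 for *Kdr* (SE 0.22) and 0.04 for *Flt1* (SE 0.14). *Vegfb* was lower in both *Tie2-cko* libraries, at 33.1 and 41.2 CPM against 47.4 and 45.7 (log2 fold change -0.32, SE 0.16, edgeR adjusted p = 0.999), an arrangement that 13% of genes shared, and none of the 8 had both above, against 14.5%. The genotype effect in chamber EdCs minus that in cushion EdCs was 0.97 for *Nrp2* (SE 0.41, edgeR adjusted p = 0.486) and 0.62 for *Vegfc* (SE 0.23, edgeR adjusted p = 0.396). In cushion EdCs *Nrp2* rested on 15, 8, 28 and 32 UMIs in libraries 5, 6, 7 and 8. Its log2 fold change there ran from -1.14 to 0.32 over the alternatives. None of the 8 differences was past the threshold, which 0.118% of 11910 genes were.

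In vascular-like cells, where *Tek* differed by less than its standard error, edgeR called none of 9219 genes (0%) and none of the 8, with 86 genes (0.933%) and none of the 8 at an unadjusted p under 0.05. DESeq2 called 6 genes and none of the 8. *Nrp2* was at 89.7 and 72.9 CPM in controls and at 72.7 and 46.3 in *Tie2-cko* (log2 fold change -0.47, SE 0.27), and 11% of all genes had both *Tie2-cko* libraries below both controls. *Nrp1* was at 140 and 99.7 against 151 and 170 (0.39, SE 0.22), an arrangement in which 13.2% of all genes stood. *Kdr* was at 338 and 268 against 370 and 255 (0.02, SE 0.22), so that library 8 was the lowest and library 6 the highest.

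In CMs, the source of most *Vegfa* UMIs, edgeR called none of 15550 genes (0%), with 60 genes (0.386%) and none of the 8 at an unadjusted p under 0.05, and DESeq2 called 1 gene and none of the 8. *Vegfa* was at 22.8 and 30.1 CPM in controls and at 23.8 and 34.5 in *Tie2-cko* (log2 fold change 0.14, SE 0.22), so that libraries 7 and 8 were high in both genotypes. *Vegfb* had a log2 fold change of -0.00 (SE 0.10). *Flt1*, low in CMs, had both *Tie2-cko* libraries above both controls (0.32, SE 0.25), as had 8.81% of genes, and none of the 8 had both below, against 7.82%. In MCs edgeR called none of 12684 genes (0%), with 140 genes (1.1%) and none of the 8 at an unadjusted p under 0.05, and DESeq2 called 9 genes and none of the 8. *Vegfc* there had a log2 fold change of 0.10 (SE 0.13). *Flt1* was at 14.4 and 13.6 CPM in controls and 9.52 and 12.7 in *Tie2-cko* (-0.31, SE 0.18), both lower, as for 12.8% of genes. In epicardial cells 7 of the 8 genes passed the filter on low counts, *Flt4* being too low, and none of the 7 was called in edgeR or DESeq2 or had an unadjusted p under 0.05 in edgeR, against 0.0334% of 11965 genes called and 1.07% at the unadjusted p. *Vegfa* was at 35.4 and 29.0 CPM against 33.8 and 45.9 (0.32, SE 0.18), and *Nrp1* had a log2 fold change of 0.06 (SE 0.19).

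**Figure D5:**
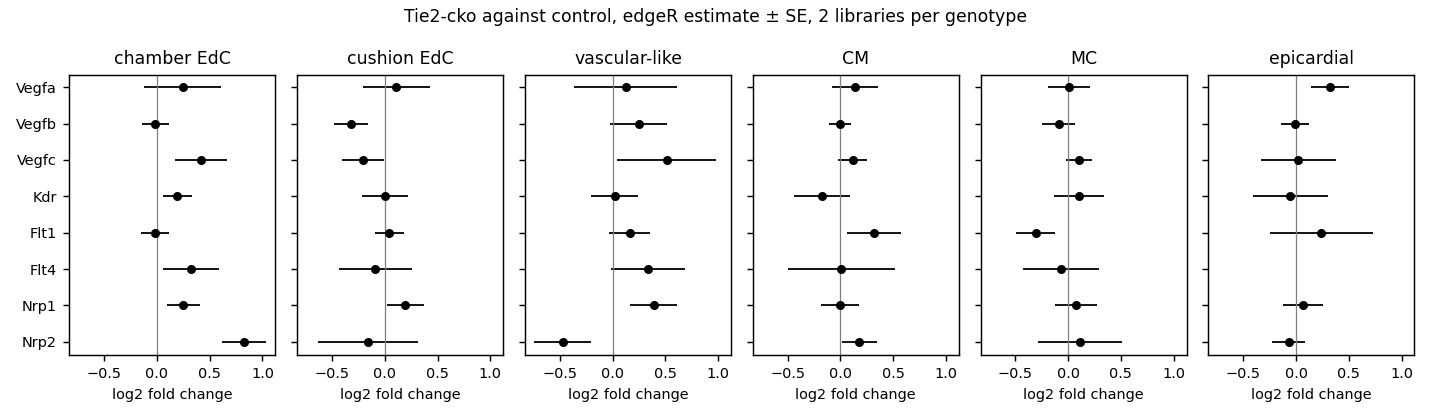
Log2 fold change of *Tie2-cko* against control (x axis, point ± SE of edgeR, 2 libraries per genotype) for the 8 genes (y axis) in 6 cell types (panels). *Nrp2* in chamber EdCs, at 0.82 ± 0.21, lies farthest from 0, and *Flt4* was not tested in epicardial cells.

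Other genes of the pathway were followed by 8 lists of 74 genes. In chamber EdCs 60 of the 74 were tested and none was called by edgeR, 5 had an unadjusted p under 0.05 (6.78% of all genes), 16 had both *Tie2-cko* libraries above both controls (18.1% of all genes) and 4 both below (19.1%). Among receptor trafficking and phosphatase genes, 9 of 9 were tested and none was called, with *Cdh5*, the adherens junction cadherin that binds KDR, at 2.15 ± 0.136 UMIs per 10000 (log2 fold change 0.04, SE 0.14) and the motor *Myo6* at 0.670 ± 0.0629 (0.15, SE 0.14). Among signal transducers 25 of 26 were tested and none called, with the small GTPases *Cdc42* (-0.03, SE 0.15) and *Rac1* (-0.08, SE 0.13) as those of the highest level. *Shb*, which encodes an adaptor of KDR, was at 1.25 and 0.648 CPM in controls and 3.44 and 1.63 in *Tie2-cko* (1.44, SE 0.55, edgeR adjusted p = 0.698), both above both controls, and was singled out after its values had been seen. These values rest on few UMIs, 9 and 6 in the controls (libraries 5 and 7) and 21 and 11 in *Tie2-cko* (6 and 8).

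Of 10 endothelial genes known to respond to VEGF, 8 were tested in chamber EdCs and none was called, with *Rcan1*, an inhibitor of calcineurin, at a log2 fold change of 0.23 (SE 0.20) and *Nos3*, the endothelial nitric oxide synthase, at -0.23 (SE 0.22). *Esm1*, a tip cell gene, had 4 and 1 UMIs in the controls (libraries 5 and 7) and 30 and 17 in *Tie2-cko* (6 and 8), or 0.556 and 0.108 CPM against 4.91 and 2.51 (log2 fold change 3.52, SE 0.68, edgeR adjusted p = 0.248), both above both controls. In vascular-like cells *Esm1* was at 32.0 and 13.4 CPM in controls and 9.96 and 26.8 in *Tie2-cko*. *Cldn5*, a gene of vascular endothelium, was at 0.120 and 0.105 UMIs per 10000 in control chamber EdCs and 0.0470 and 0.0704 in *Tie2-cko*. The part of vascular-like cells in the *Esm1* difference was not tested. *Dll4*, the Notch ligand of tip cells, was at 13.2 and 9.94 against 25.5 and 12.7 (0.74, SE 0.32, edgeR adjusted p = 0.725), with the genotypes overlapping. *Esm1* and *Dll4* were singled out after their values had been seen. The list's median was 0.28. The paper also names *Nos3* and *Esm1* as targets of the transcription factor FOXO1. By quantitative PCR of whole hearts at a later stage it reports *Nos3* lower and *Esm1* higher in *Tie2-cko*. Values of this list are thus not particular to VEGF, and their cause was not tested.

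Of 12 hypoxia genes, 10 were tested in chamber EdCs and none was called. The glycolytic *Ldha* (log2 fold change -0.19, SE 0.19) and *Pgk1* (-0.05, SE 0.18) were the members of highest level. *Epas1*, which encodes HIF2A, was at 24.6 and 21.7 CPM against 35.5 and 30.6 (0.53, SE 0.16, edgeR adjusted p = 0.556), and *Ddit4*, an inhibitor of mTORC1, at 14.9 and 15.6 against 8.52 and 8.58 (-0.82, SE 0.19, edgeR adjusted p = 0.356), a pair likewise singled out by their values. Of 7 semaphorins 3 were tested (*Sema3a* 0.04, SE 0.17 and *Sema3g* 1.06, SE 0.48), of 5 plexins 4 were tested (*Plxnd1* 0.07, SE 0.17 and *Plxna4* 0.45, SE 0.20), and of the ligands *Pgf* and *Vegfd* only *Pgf* was (0.00, SE 0.27), with none called. The 3 genes of VEGFC processing were too low to be tested there. In cushion EdCs 61 of the 74 genes were tested, in vascular-like cells 56, in CMs 71, in MCs 67 and in epicardial cells 62, and edgeR called none in any of these, with 2, 2, 0, 3 and 3 at an unadjusted p under 0.05, against 1.88, 0.933, 0.386, 1.1 and 1.07% of all genes. *Pgf*, which encodes a further ligand of FLT1, was highest in cushion EdCs, at 0.404, 0.338, 0.353 and 0.339 UMIs per 10000, the endocardium in which *Flt1* was high.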

How the data were processed

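The authors made the deposited files with Cell Ranger, 6.1.2 by the headers of the count matrices (the methods name another version), against mm10 by the submitters' processing notes. The deposited values are whole UMI counts per gene and barcode, 4 libraries.

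Barcodes under 500 genes or 1000 UMIs, or over 10% mitochondrial UMIs, were dropped, and the barcodes of highest Scrublet score (scanpy 1.11.5) were removed as doublets, at 0.8% per 1000 barcodes. Clustering used log-normalised counts without integration of the libraries. Libraries were clustered with Seurat 5.3.0 (2000 variable genes without the 83 genes compared here, 30 principal components, 20 neighbours, resolution 0.8). Clusters were named from marker lists by conditions set after the data were seen, and 3 clusters with few UMIs (11.6% of cells) were left unnamed. Shares of cells were taken after thinning each cell to 5500 UMIs.

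Counts summed per library and cell type (at least 20 cells) were tested with edgeR 4.0.16 (quasi-likelihood, TMM scaling, low counts filtered, Benjamini-Hochberg adjustment, threshold 0.05) in R 4.3.3, and with DESeq2 1.42.0 as an alternative. Standard errors were taken from the F statistic (log2 fold change over its square root). The edgeR test was also run on counts simulated from its own fit to the chamber EdCs. Such counts cannot show how the test behaves with differences between libraries that the fit leaves out. Alternatives were other size factors, no filter on low counts, each library left out, a block for libraries 5 and 6, a stricter cell filter (1500 genes, 5% mitochondrial), no doublet removal, and clustering with the 8 genes kept in. The members and the 8 pathway lists (other ligands, ligand processing, receptor trafficking, signal transducers, VEGF-responsive genes, semaphorins, plexins, hypoxia) were chosen with earlier results of these data known. By rule, named genes were the 8 members, *Tek*, list genes past the threshold, the 2 of highest level per list, and the 3 most like each member (level of at least 0.5 UMIs per 10000 in 1 cell type). Outside the rule, *Esm1*, *Dll4*, *Shb*, *Epas1* and *Ddit4*, the list genes with an unadjusted p under 0.05 in chamber EdCs, and the marker *Cldn5* were named after their values had been seen. Intervals over libraries cover only these 4 hearts.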

Additional observations from a re-analysis of the deposited data

How the results depend on the processing

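With 2 hearts per genotype, calls moved with the processing. Of the 8 members in chamber EdCs, edgeR called 1 (*Nrp2*) with no filter on low counts and 2 (*Nrp2*, *Vegfc*) with the block for libraries 5 and 6, a fit with 1 residual degree of freedom per gene. That block pairs 5 with 6 and 7 with 8. The methods speak of somite-matched libraries sharing a lane, but neither they nor the labels say which match, and the genotypes share no replicate numbers. Genes called with no filter were 159 in chamber EdCs, 22 in cushion EdCs, 24 in vascular-like cells, 25 in MCs, 0 in epicardial cells and 190 for chamber minus cushion EdC. With DESeq2 they were 16 in chamber EdCs, 6 in vascular-like cells, 1 in CMs and 9 in MCs. With the block they were 889, 78, 23, 88, 92 and 48 in chamber EdCs, cushion EdCs, vascular-like cells, CMs, MCs and epicardial cells. Cushion EdCs had 0 with the members kept among the variable genes, and epicardial cells 1 without doublet removal. Leaving out each library gave 2 to 154 genes in chamber EdCs, 7 to 48 in cushion EdCs, 0 to 64 in vascular-like cells, 0 to 11 in CMs, 0 to 12 in MCs and 6 to 68 in epicardial cells. The log2 fold change of *Nrp2* in chamber EdCs ran from 0.67 to 1.01, and that of *Vegfc* was 0.13 without library 6, 0.14 without library 7, 0.66 without library 8 and 0.74 without library 5. Near 0, signs turned: *Flt1* in chamber EdCs was 0.0048 with the members kept, *Kdr* in cushion EdCs -0.0022 with DESeq2 size factors, -0.0068 with DESeq2, -0.040 with stricter cells and -0.048 without doublet removal, *Kdr* in vascular-like cells -0.0013 with the members kept, and *Vegfb* in CMs 0.0062 with stricter cells. Leaving out each library gave, in chamber EdCs, -0.25 to 0.66 for *Vegfa*, -0.052 to 0.017 for *Vegfb* and -0.098 to 0.068 for *Flt1*; in cushion EdCs, -0.39 to 0.29 for *Kdr* and -0.044 to 0.14 for *Flt1*; -0.24 to 0.24 for *Kdr* in vascular-like cells; in CMs, -0.15 to 0.38 for *Vegfa* and -0.034 to 0.032 for *Vegfb*; and -0.21 to 0.30 for *Nrp1* in epicardial cells. Without turning sign, it gave 0.090 (without library 8) to 0.50 (without library 6) for *Vegfa* in epicardial cells, and in vascular-like cells -0.81 (without 6) to -0.22 (without 8) for *Nrp2* and 0.22 (without 7) to 0.62 (without 5) for *Nrp1*. The cause was not tested. *Nrp1* in vascular-like cells was 0.971 UMIs per 10000 with the members kept. Without thinning, 53.6% of SV/AVC CMs held a *Vegfa* UMI and 96.6% of CMs a *Vegfb* UMI. Of *Hand1*-led cells, 52.1% held *Vegfc* and 55.1% held *Nrp2*. In vascular-like cells the shares were 81.8% for *Kdr*, 79.4% for *Flt1*, 42.3% for *Flt4* and 69.9% for *Nrp1*. These were not always the highest shares, since 82.1% of ventricular CMs held an *Nrp1* UMI. The *Hand1*-led cluster did not form with the members kept or without doublet removal.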
